A study of Homo sapiens with 6 samples.

Results

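The genes of HLA class I antigen presentation were followed through 6 bulk ATAC-seq libraries of GM12878, an established human lymphoblastoid cell line made by transforming B cells with Epstein-Barr virus. The set comprised 9 genes, of 19748 protein-coding genes on chromosomes 1 to 22 and X, namely HLA-B, HLA-C, HLA-E, HLA-F and HLA-G, B2M, TAP1, TAP2 and NLRC5. They were chosen by name, and every peak that touched the hg19 GENCODE gene body or the 5 kb on either side of it was taken. Peaks of the 6 lists that overlapped or adjoined were merged into regions, which gave 20 regions at the members of 56447 over the genome. All libraries came from cells fixed in 1% PFA, and the labels give the same 30 min transposition at 37 degrees with 0.05% Igepal CA-630 for each. The 3 groups, with 2 replicates each, differed in how crosslinks were reversed at 65 degrees: in an SDS buffer with DNA purification, in a non-SDS buffer with purification, or in the non-SDS buffer with PCR directly afterwards and no purification. No antibody, drug or genetic change was used, and the line stems from a single donor. The comparison asks whether the buffer made for direct PCR leaves accessibility at these genes as the older protocol shows it. The study's methods describe the SDS libraries under a separate fixed-cell protocol, so a difference in lysis and the difference in buffer cannot be told apart.

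HLA class I molecules carry peptides from inside the cell to its surface, where CD8 T cells and natural killer cells read them. HLA-B and HLA-C are classical heavy chains, while HLA-E, HLA-F and HLA-G are less variable, with HLA-G known mainly from the placenta. Each heavy chain needs B2M, the beta-2-microglobulin light chain, and peptides that TAP1 and TAP2, the 2 subunits of the peptide transporter, move into the endoplasmic reticulum. NLRC5 is the transactivator that drives this gene set, and it acts through a promoter module bound by RFX proteins, CREB family factors and NF-Y, next to binding sites for NF-kB and interferon regulatory factors. B lymphoblastoid lines are known for strong surface HLA class I.

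Stretches of reference sequence just upstream of the canonical start (hg19, 5′ to 3′ on the gene's strand, without annotated untranslated bases) are given for 6 members whose promoters were called in very different numbers of libraries. Capitals mark matches to short motifs: an ISRE-like pattern (GAANNGAAA, or GAAA and GAAA with any 2 bases between them), an NF-kB-like pattern (GGGA, any 4 bases, then CC), the CRE-like TGACG and the CCAAT box, each on either strand. Overlapping matches run together. The stretches of HLA-B, HLA-F and TAP1 stop at -115, -129 and -113, where annotated untranslated bases begin. Matches nearer the start are therefore not shown for these genes. Among them are TGACG from -106 to -102 and CCAAT from -56 to -52 in HLA-B. Others are CCAAT from -57 to -53 in HLA-F and an NF-kB-like match from -72 to -63 in TAP1. HLA-B is read from chr6:31325071-31325206 (minus strand), HLA-C from chr6:31239883-31240119 (minus strand), HLA-F from chr6:29690961-29691082 (plus strand), HLA-G from chr6:29795352-29795601 (plus strand), B2M from chr15:45003522-45003706 (plus strand) and TAP1 from chr6:32821594-32821731 (minus strand).
HLA-B: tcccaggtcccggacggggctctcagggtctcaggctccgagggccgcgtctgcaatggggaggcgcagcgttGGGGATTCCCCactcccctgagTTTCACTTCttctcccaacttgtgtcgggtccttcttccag
HLA-C: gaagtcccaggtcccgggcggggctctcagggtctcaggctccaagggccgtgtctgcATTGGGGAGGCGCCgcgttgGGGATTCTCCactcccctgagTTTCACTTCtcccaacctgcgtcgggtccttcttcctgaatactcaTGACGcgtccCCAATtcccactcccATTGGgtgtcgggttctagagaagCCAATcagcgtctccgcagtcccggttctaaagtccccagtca
HLA-F: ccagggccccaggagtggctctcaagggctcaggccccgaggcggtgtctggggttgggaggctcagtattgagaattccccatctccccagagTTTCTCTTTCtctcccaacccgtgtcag
HLA-G: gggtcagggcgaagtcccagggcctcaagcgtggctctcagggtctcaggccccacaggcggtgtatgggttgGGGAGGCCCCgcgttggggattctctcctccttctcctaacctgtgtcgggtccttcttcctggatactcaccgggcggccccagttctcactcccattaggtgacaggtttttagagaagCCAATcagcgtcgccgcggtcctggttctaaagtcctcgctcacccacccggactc
B2M: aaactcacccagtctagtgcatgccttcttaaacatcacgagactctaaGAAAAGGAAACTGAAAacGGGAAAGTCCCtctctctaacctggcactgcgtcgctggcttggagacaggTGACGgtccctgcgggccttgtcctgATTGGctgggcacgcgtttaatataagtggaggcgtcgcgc
TAP1: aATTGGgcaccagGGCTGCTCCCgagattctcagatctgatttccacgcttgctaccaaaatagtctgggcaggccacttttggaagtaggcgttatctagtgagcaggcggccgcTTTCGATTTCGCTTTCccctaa

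Over the 250 bases before each start, an ISRE-like match was found in 6 of the 9 members (HLA-B, HLA-C, HLA-F, B2M, TAP1 and TAP2) and in 8.1% of 19471 protein-coding promoters. In HLA-B it lay from -155 to -147 and in HLA-C from -151 to -143, just downstream of an NF-kB-like match in both. The NF-kB-like pattern was present in 6 members (HLA-B, HLA-C, HLA-G, B2M, TAP1 and NLRC5) against 26.7% of promoters. TGACG was present in 5 members against 25.5%, and CCAAT in 7 against 34.3%. The letters of the first 2 patterns were settled after the member sequences had been seen, so these shares only describe the sequences. Over the 200 bp on each side of the start, HLA-B and HLA-C were each other's closest copy in the genome, at 88.3% identity over 403 aligned bases. The closest copies of HLA-F and HLA-G, at other places on chromosome 6 that are not starts of members, were 82.7% identical and that of HLA-E, likewise on chromosome 6, 77.9%, whereas B2M, TAP1, TAP2 and NLRC5 had no copy of at least 75% identity. GC content of the 250 bp on each side of the start ranged from 58.5% (HLA-E) to 69.9% (NLRC5), around a median of 64.7% over all promoters. The observed over expected CpG ratio of the 5 HLA genes (0.548 to 0.701) was below the median of 0.78. So were those of B2M (0.724), TAP1 (0.757) and NLRC5 (0.773), and only TAP2 (0.79) was above it. Whether reads were lost at the HLA genes by the authors' filter on mapping quality was not tested.

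The lists held between 30136 and 38023 peaks, and the median peak of a list rested on 20 to 22 reads at its summit. Depth of the whole libraries is unknown, since only peaks are in the files. The purified non-SDS replicate 2 had the shortest list and its replicate 1 the longest. Of 8 B cell marker genes, 2 (MS4A1 and EBF1) had a promoter region called in all 6 libraries and 1 had none in any. Of 9 markers of other blood lineages, 1 (CD8A) was called in all 6 and 7 in none. Among all protein-coding genes, 45.7% were called in all 6 and 39.2% in none, so calls of B cell markers in all 6 were not above that share.

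Promoters of 6 of the 9 members were called in all 6 libraries (HLA-C, HLA-E, HLA-F, B2M, TAP1 and NLRC5). Of all protein-coding genes, 45.7% had such a promoter region, defined as lying within 1 kb of a protein-coding transcript start. HLA-B and TAP2 were called in 3 libraries each, so that 8 of the 9 had a call in at least 1 library, as had 60.8% of genes. HLA-G had no region of any kind in its window, as was the case at the promoter of 39.2% of genes. By class, 13 of the 20 regions were promoter regions, 1 lay at the promoter of another gene next to TAP1, and 6 were distal regions, all of them in NLRC5. Calls in all 6 libraries were made for 8 of the 20 regions (35.5% of all regions), namely for 6 of the 13 promoter regions (64.2% of promoter regions over the genome), for 1 of the 6 distal ones (27% of regions outside promoters) and for the region at the other gene. Where at least 50% of a region had to lie in a library's peaks, B2M was the only member with a promoter called in all 6, beside 34.7% of genes, and the other 5 promoters were called in 5 libraries each. At the level of single libraries, 17 of the 20 regions (85%) were called in the purified non-SDS replicate 1, which called 65.9% of all regions. Each of the other 5 libraries called between 11 and 13 (55% to 65%), beside 51.9% to 64.9% of all regions.

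**Figure D1:**
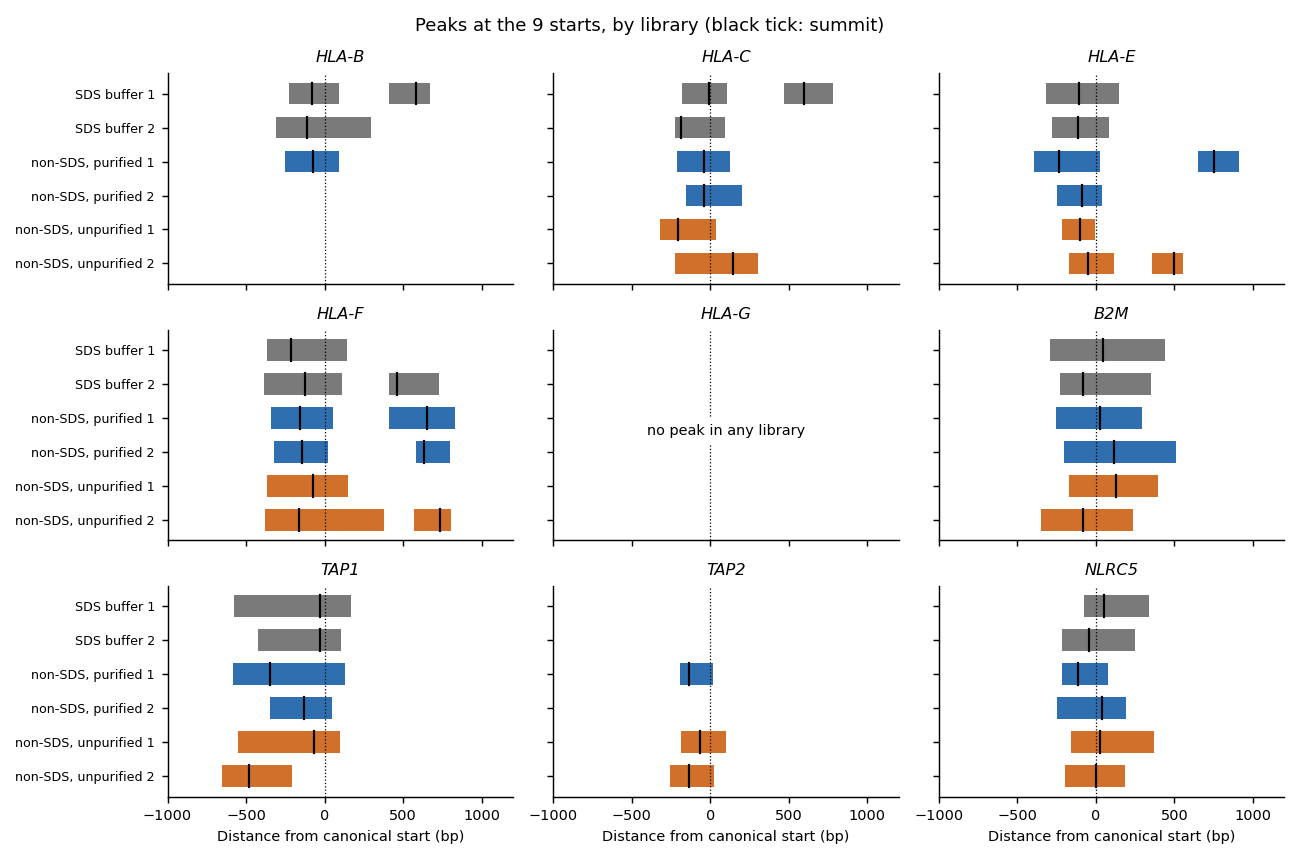
Peaks of each library around the canonical start of the 9 genes; the x axis is the distance from the start in bp, each bar is a peak coloured by protocol, and the black tick is its summit. HLA-C, HLA-E, HLA-F, B2M, TAP1 and NLRC5 have a peak within 1 kb of the start in all 6 libraries, HLA-B and TAP2 in 3, and HLA-G in none. The peaks of HLA-E in the unpurified replicate 1 and of TAP1 in the unpurified replicate 2 end before the start, at -6 and -208 bp.

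HLA-B, the classical heavy chain gene at chr6:31321649-31334844, had its promoter region at chr6:31324661-31325264, which covers the start, coding and untranslated exon bases and the stretch printed above. It was called in both SDS libraries and in the purified non-SDS replicate 1, and in neither unpurified library. The fold enrichment at the summit, a linear ratio of reads to the local background as MACS2 gives it, was 4.45 and 5.16 in the SDS replicates and 5.9 in the purified replicate. These summits held 12, 12 and 18 reads, and the 3 peaks ranked at 93.2%, 80.6% and 54.9% of their lists by q value, where 100% is the weakest peak. A call in both SDS libraries and in neither unpurified library was made for 2.82% of the 51347 regions called in at least 1 of those 4 libraries. The weakest peaks of the lists had 8 or 9 summit reads, close to the 12 of the SDS peaks, and a missing call does not show that the region was closed. A second region, 409 to 672 bp inside the gene, was called in the SDS replicate 1 alone with a fold enrichment of 4.84.

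HLA-C, the neighbouring classical gene at chr6:31236526-31239907, was called in all 6 libraries at chr6:31239565-31240188. Fold enrichment was 5.92 and 5.63 with the SDS buffer, 7.93 and 6.25 with the purified non-SDS buffer, and 4.94 and 5.31 with the unpurified buffer. The purified pair was thus above and the unpurified pair below the SDS pair. How often regions over the genome show such an order of pairs was not computed, here or for the orders given below. The purified replicate 1 was the strongest, with 22 reads at the summit (95% Poisson interval 13.8 to 33.3), and the unpurified replicate 1 the weakest, with 15 (8.4 to 24.7), so that the counting intervals overlapped. Unpurified minus purified was -0.44 on the log2 scale (SE 0.21, 95% interval -0.86 to -0.02), and its limma p was 0.0419 before and 1 after Benjamini-Hochberg adjustment. Before adjustment it was 0.218 without the purified replicate 1 (difference -0.33), 0.181 without the unpurified replicate 1 (-0.36) and 0.0526 without the unpurified replicate 2 (-0.52). The summits lay from -203 to 142 bp of the start. As at HLA-B, a second region inside the gene was called in the SDS replicate 1 alone, at 467 to 783 bp and with a fold enrichment of 5.52.

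HLA-E, whose product presents leader peptides of other class I chains to natural killer cells, was called in all 6 libraries at chr6:30456889-30457431. The SDS replicates differed most from each other, at 7.5 and 4.96. The purified values were 5.07 and 6.49 and the unpurified ones 5.3 and 4.7, so the groups overlapped. In reads at the summit the SDS pair was 23 (95% Poisson interval 14.6 to 34.5) against 13 (6.92 to 22.2), which is within counting error. All 6 summits were upstream of the start, from -238 to -52 bp. Regions at 354 to 553 bp and at 653 to 913 bp inside the gene were each called in 1 library, the unpurified replicate 2 and the purified replicate 1.

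HLA-F had the highest promoter of the set. Its region at chr6:29690824-29691591 was called at 7.71 and 8.14 with the SDS buffer, 6.78 and 6.76 with the purified buffer, and 8.25 and 7.65 with the unpurified buffer. The purified pair was the lowest, and the other groups overlapped. Between 22 and 34 reads stood at the summits, which lay from -211 to -75 bp of the start. It ranked at 15.9% to 37.9% of the lists and was the best-ranked member promoter in every library but the purified replicate 1, where HLA-C ranked at 33.6% and HLA-F at 34.4%. A second region of HLA-F, 411 to 831 bp inside the gene over coding exons, was called in 4 libraries and missed in the SDS replicate 1 and the unpurified replicate 1, with fold enrichments of 3.9 to 5.64.

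HLA-G had no peak in any library in its window, chr6:29789744-29803902. Its upstream sequence, printed above, shares the CCAAT match from -56 to -52 with HLA-B and HLA-C. TGACG and either ISRE-like form were not found in it. The same held for NLRC5, while HLA-E had no ISRE-like match and HLA-F and TAP1 had no TGACG. The promoters of NLRC5, HLA-E, HLA-F and TAP1 were called in every library. Whether calls go with these motifs was not tested.

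B2M, the light chain gene on chromosome 15, was called in all 6 libraries at chr15:45003367-45004226, a region that also lies at a start of the neighbouring gene PATL2. Its values were among the steadiest, with 4.86 and 4.91 in the SDS libraries, 4.87 and 5.61 in the purified libraries, and 6.01 and 5.19 in the unpurified libraries. Both SDS values were below both unpurified values, and the purified pair spanned part of that range. At 22 to 27 summit reads and widths of 550 to 731 bp, these peaks were broad and of moderate height, and they ranked at 38.9% to 58.5% of the lists. Unpurified minus SDS was 0.22 on the log2 scale (SE 0.21, adjusted p = 0.909 in limma).

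TAP1, a subunit of the peptide transporter, was called in all 6 libraries at chr6:32821315-32822134, a region that also lies at a start of PSMB9 on the other strand. Fold enrichment was 5.58 and 5.26 with the SDS buffer, 5.84 and 5.68 with the purified buffer, and 5.45 and 4.84 with the unpurified buffer. Its SD over the 6 libraries, 0.355, was the smallest of the member promoters. The summits moved more, from -481 to -26 bp of the start.

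The other region in the TAP1 window, chr6:32812136-32812787, lies beyond the 3′ end of TAP1 at starts of PSMB8 and PSMB9, which encode subunits of the immunoproteasome. Fold enrichment there was 5.82 and 7.28 with the SDS buffer, 4.64 and 4.59 with the purified buffer, and 5.64 and 5.36 with the unpurified buffer. Both purified values were below all 4 others. Purified minus SDS was -0.49 on the log2 scale (95% interval -0.92 to -0.06), and its limma p was 0.0269 before and 0.666 after adjustment. Without the SDS replicate 2 the difference was -0.31 (limma p 0.223 before adjustment), and without the purified replicate 1 it was -0.44 (0.103). A p below 0.05 before adjustment was found for 6.85% of all regions in this comparison.

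TAP2, the second transporter subunit, was called at chr6:32806414-32806773 in the purified replicate 1 (fold enrichment 4.05) and in the unpurified replicates (4.7 and 5.49), and in neither SDS library. The purified peak was among the weakest of its list, at a rank of 98% with 11 summit reads. The unpurified peaks had 18 reads each and ranked at 71.7% and 59.6%. Calls in both unpurified libraries and neither SDS library were made for 2.4% of regions. No member region was called in both libraries of a group and neither of another in the remaining 3 directions (SDS without purified, 3.2% of regions; purified without unpurified, 1.76%; unpurified without purified, 2.7%). HLA-B and TAP2 therefore had opposite call patterns in these groups, and neither region could be tested by limma on fold enrichment because it was not called in all 6 libraries.

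**Figure D2:**
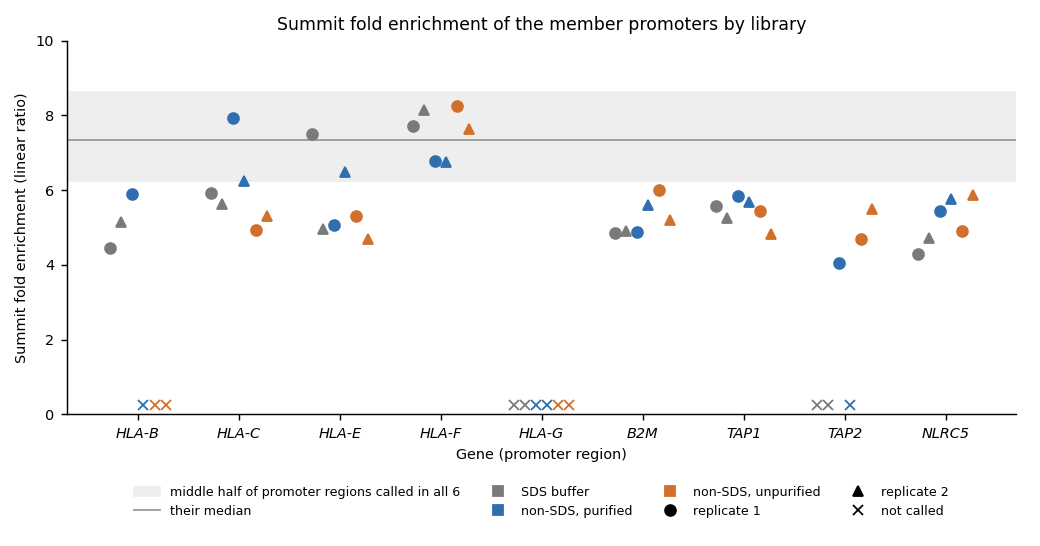
Summit fold enrichment (y axis, linear ratio) of the promoter region of each gene, by library; circles and triangles are replicates 1 and 2, colours are protocols, and crosses near 0 mark libraries without a call. HLA-F is the only member whose 6 values all fall inside the shaded band. The band covers the middle quartiles (6.24 to 8.63) of promoter regions called in all 6 libraries, the strongest per gene.

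NLRC5, the transactivator gene, spans chr16:57023397-57117443 and held 7 regions. Its promoter, chr16:57023220-57023837, was called in all 6 libraries at 4.29 and 4.73 with the SDS buffer, 5.45 and 5.76 with the purified buffer, and 4.91 and 5.88 with the unpurified buffer. The SDS values were the lowest pair. Purified minus SDS was 0.32 (95% interval -0.1 to 0.75) and unpurified minus SDS 0.28 (-0.15 to 0.71) on the log2 scale, with adjusted p of 0.822 and 0.87 in limma.

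The strongest distal region of the set was in an intron of NLRC5, at chr16:57048457-57049058, about 25 kb into the gene. It was called in all 6 libraries with fold enrichments of 6.67 and 8.04 (SDS), 6.91 and 5.28 (purified) and 9.41 and 8.02 (unpurified). In every library but the purified replicate 2 it exceeded the NLRC5 promoter. Both unpurified values were above both purified ones, and the SDS pair overlapped with each. Unpurified minus purified was 0.54 on the log2 scale (SE 0.19, 95% interval 0.15 to 0.94), and its limma p was 0.00824 before and 1 after adjustment. Before adjustment it was 0.0836 without the purified replicate 2 (difference 0.41) and 0.0739 without the unpurified replicate 1 (0.46). Its summits fell within a narrow stretch, 25142 to 25264 bp from the start.

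The other 5 distal NLRC5 regions were called in fewer libraries. The region over a coding exon at chr16:57075276-57075795 was called in both purified (4.35 and 3.53) and both unpurified libraries (4.1 and 4.35) and in neither SDS library. Calls in both purified and neither SDS library were made for 1.83% of regions, and in both unpurified and neither SDS library for 2.4%. The share of regions with both patterns together was not computed. The intron region next to it, chr16:57076031-57076416, was called in 5 libraries, among them the SDS replicate 1 at 3.87, and reached 5.61 in the purified replicate 1. Of the remaining intron regions, chr16:57033403-57033843 was called in 2 libraries (5.04 and 3.73), chr16:57034567-57034836 in 3 (4.17 to 4.89) and chr16:57079636-57079939 in 2 (4.44 and 3.34). All 5 were called in the purified replicate 1 and 1 of the 5 in the SDS replicate 1. These libraries called 65.9% and 64.9% of all regions, a set that includes regions called in all 6. Their shares among regions called in fewer libraries were not computed.

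**Figure D3:**
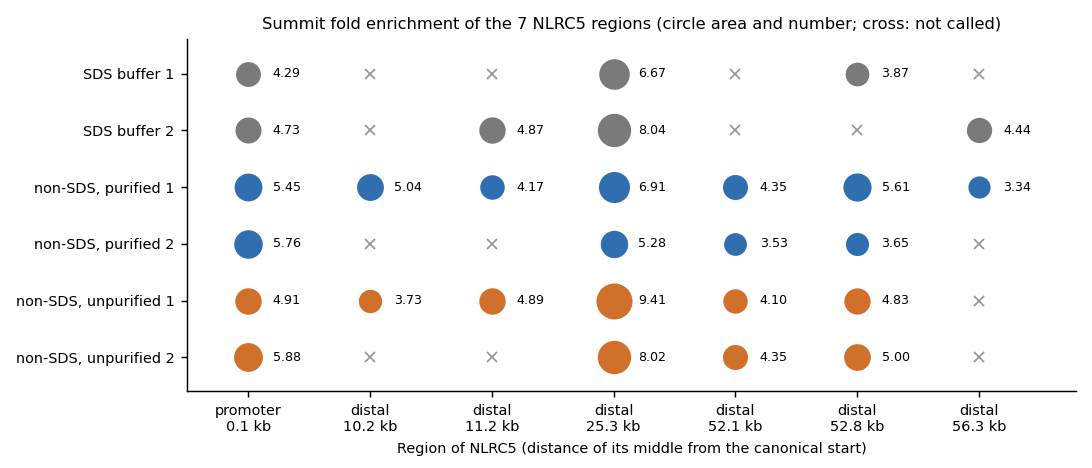
The 7 regions of NLRC5 (x axis, not to scale, with the distance of the middle of each region from the canonical start) in the 6 libraries (y axis); circle area and the number beside it give the summit fold enrichment, and crosses mark libraries without a call. The intron region at about 25 kb and the promoter are the only regions called in all 6.

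Set against each other, the 6 promoters called everywhere had geometric mean fold enrichments of 7.53 (HLA-F), 5.93 (HLA-C), 5.59 (HLA-E), 5.43 (TAP1), 5.22 (B2M) and 5.14 (NLRC5). For each gene with a promoter region called in all 6 libraries, the strongest such region by mean −log10 q was taken, giving 7758 regions. Their median was 7.34, so that 5 of the 6 member promoters were below it. HLA-F stood at or above 54.2% of these regions, HLA-C 18.7%, HLA-E 13%, TAP1 10.7%, B2M 7.93% and NLRC5 6.68%. In all 15 pairs, the within-library differences were compared by an exact two-sided sign-flip permutation test, whose smallest possible p with 6 libraries is 0.0312. HLA-F was above HLA-E, TAP1, B2M and NLRC5 in 6 of 6 libraries (exact p = 0.0312 and adjusted p = 0.117 for each pair). It was above HLA-C in 5 of 6 libraries (exact p = 0.0938). No pair passed after adjustment over the 15. A pair could pass only if most of the 15 reached the smallest possible p, so this does not show that the promoters are alike. Each pair of neighbours in this order differed by less than its spread over libraries. The mean log2 differences were -0.34 for HLA-C minus HLA-F (SD 0.35) and 0.08 for HLA-C minus HLA-E (SD 0.34). They were 0.04 for HLA-E minus TAP1 (SD 0.23), -0.06 for B2M minus TAP1 (SD 0.16) and 0.02 for B2M minus NLRC5 (SD 0.19). By percent rank, the promoter regions nearest to B2M were those of PLOD1 and GSAP (root mean square differences of 4.66 and 4.84 percentage points over 6 libraries), and those nearest to NLRC5 were PABPC4 and FAM32A (5.26 and 6.36). HLA-B was not called in every library and has no such neighbour.

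Differences between protocols were fitted with limma over the 20064 regions called in all 6 libraries, on log2 fold enrichment centred at each library's median. The fit held 8 member regions, and 0 of the 8 passed an adjusted p of 0.05 in any of the 3 comparisons. Over the genome 0.00498% passed for purified minus SDS (1 region), 0.00498% for unpurified minus SDS (1 region) and 0% for unpurified minus purified. At an unadjusted p below 0.05, 1, 0 and 2 of the 8 member regions were found, beside 6.85%, 6.54% and 4.89% of all regions. In each comparison 4 of the 8 were higher and 4 lower, and the median of all regions was within 0.003 of 0. The outermost limit of the 95% intervals of the member differences was 0.94 on the log2 scale. The 2 replicates of a group are not stated to be separate cultures, and p-values then measure the spread between libraries only.

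**Figure D4:**
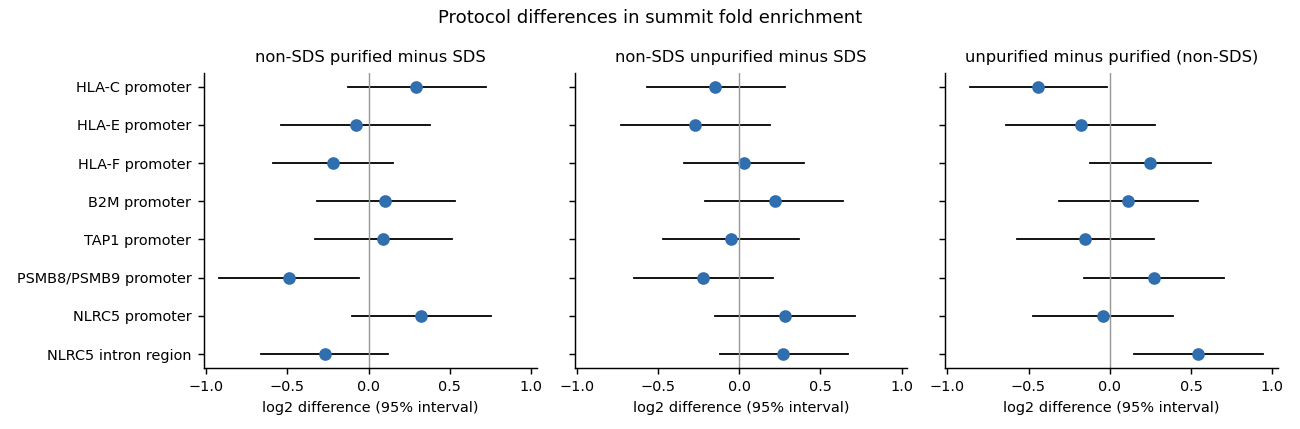
Differences in log2 summit fold enrichment between protocols (x axis) for the 8 member regions called in all 6 libraries (y axis); points are limma estimates and lines their 95% intervals before adjustment. The PSMB8/PSMB9 promoter in the first panel (-0.49) and the HLA-C promoter (-0.44) and NLRC5 intron region (0.54) in the third have intervals that leave out 0, and none passed after adjustment.

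Other genes of the pathway gave a fuller picture. Of 22 listed genes, 15 had a promoter region called in all 6 libraries, beside 45.7% of all genes. The highest mean fold enrichments were those of CANX (9.73), which encodes the chaperone calnexin, and RFX5 (9.19), a subunit of the RFX complex that binds class I and class II promoters. CANX ranged from 8.69 to 11.8 and RFX5 from 7.97 to 11.4 over the libraries, above every value of the HLA-C, HLA-E, B2M, TAP1 and NLRC5 promoters. The lowest were the region shared by PSMB8 and PSMB9 (5.49) and ERAP1 (5.85), an aminopeptidase that trims peptides in the endoplasmic reticulum. PSMB9 also has a start at the TAP1 promoter region (5.43), which was weaker by mean −log10 q and did not stand for PSMB9 here. Of the 15, 9 were below the promoter median of 7.34. The remaining 7 genes were not called everywhere, with MICB called in 4 libraries, TAPBP and MR1 in 2, and TAPBPL, ERAP2, MICA and CD1D in 1. TAPBP encodes tapasin, which bridges TAP and the class I chain, and its peaks had fold enrichments of 3.57 and 3.75. ERAP2 trims peptides as ERAP1 does, while MICA, MICB, CD1D and MR1 encode class I-like molecules. None of the list passed the limma threshold in any comparison, and at an unadjusted p below 0.05 there was 1 region, that of PSMB8 and PSMB9 in purified minus SDS.

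**Figure D5:**
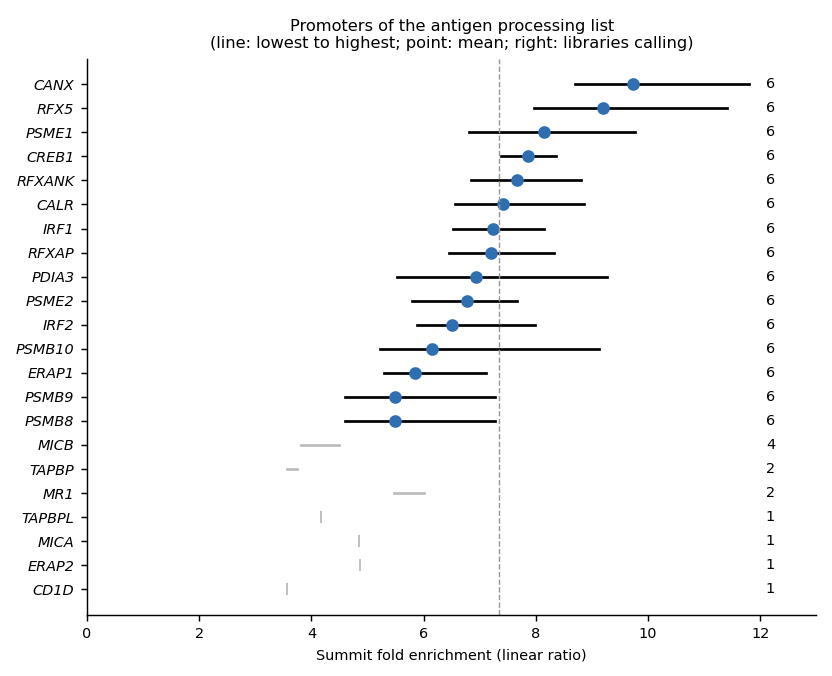
Summit fold enrichment (x axis, linear ratio) at the promoters of 22 other genes of antigen processing and its regulation (y axis). Lines run from the lowest to the highest library, and points are geometric means where all 6 libraries called the region. The number at the right is the count of calling libraries. The dashed line is the median (7.34) of promoter regions called in all 6 libraries, the strongest per gene. CANX and RFX5 are highest, and 7 genes were called in 1 to 4 libraries.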

How the data were processed

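Fixed GM12878 cells were profiled by ATAC-seq, in which Tn5 transposase inserts adapters into open chromatin. Per the labels and the study's methods, the authors mapped reads to hg19 with Bowtie2 2.1.0, removed duplicates with Picard 1.79 and used MACS2 (version not given in the sources used here) to find narrow peaks with q under 0.01, and 1 peak list per library was used. The deposited columns hold the summit's fold enrichment, a ratio to local background, and the −log10 p-value and q-value. The deposited MACS2 score was not used. Groups and replicate numbers came from the labels. Whole reads at each summit were solved from the deposited ratio and p-value, to within 0.001, and their intervals cover counting error only. Starts came from GENCODE 44 lifted to GRCh37. Overlap of at least 1 bp with a library's peaks made a call, and the strongest peak stood for the region. limma 3.58.1 (R 4.3.3, trend) tested log2 ratios across regions with Benjamini-Hochberg adjustment. In simulated data for unpurified minus SDS, 200 of 20064 regions were changed, with normal noise at the spread of the fit. There limma recovered 92.5% of regions changed by 1 on the log2 scale, and 11 unchanged regions also passed. Regions that would lose a call were not simulated, so this share may not hold for the real data. blastn 2.17.0 sought copies. DESeq, named in the processing notes, needs counts that peak lists do not hold. Every member and region was named; of the pathway list, those not called in all 6 libraries, past the threshold, or among the 2 highest and 2 lowest. A gene of the pathway list fixed at the outset is not reported here. Members and lists were chosen with earlier results of these data known.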

Additional observations from a re-analysis of the deposited data

How the results depend on the processing

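The count of members with a promoter called in all 6 libraries was 6 in the report and stayed within 1.5 times of it with stricter peaks (−log10 q of at least 5), equal list lengths, peaks within 100 bp merged, other promoter widths, annotated gene starts only, or any replicate left out. It was 1 when at least 50% of the region had to lie in the library's peaks, as was the count of member regions called in all 6 (8 in the report). Under that rule 34.7% of all genes and 25.3% of all regions were called in all 6, against 45.7% and 35.5% in the report. By peak width, the median percent rank of the member promoters was 43 in place of 56.8. The number of regions past the limma threshold was 1, 1 and 0 in the report (purified minus SDS, unpurified minus SDS, unpurified minus purified). It was 10 and 4 in the first 2 with summit reads, 2 and 4 with regions called in at least 4 libraries, and 0 in the second without centring or with quantile normalisation. With each replicate left out it ranged from 0 to 6, from 0 to 2 and stayed at 0. Without the purified replicate 1 it was 6 and 2, without the unpurified replicate 1 it was 3 and 0, without the unpurified replicate 2 it was 2 in the second, and without either SDS replicate 0 in both. The causes were not tested. Member regions past the threshold numbered 0 under every alternative, and of 288 single values under alternatives 12 changed sign. The replicate block left the counts at 1, 1 and 0, and same-numbered libraries did not deviate together (r of 0.013, -0.000802 and 0.0149 over regions). Summits rest on few reads, so counting error could hide a pairing. Whether same-numbered libraries were prepared together is not given by the labels. For the 6 promoters compared in pairs, 4 of 15 pairs had the same sign in every library in the report, 3 by summit reads and 4 to 6 with a replicate left out. Leaving out replicates for the ranks and all alternatives for the pathway list (11 to 15 genes) were added after seeing the data. Summits of the member regions rested on 11 to 34 reads, and detection of changes below 1 on the log2 scale was not tested.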
